A study of Homo sapiens with 6 samples.

Results

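The mTOR kinase pathway was examined on arrays of H661, a human cell line from a large cell carcinoma of the lung, through 10 genes: MTOR, RPTOR, RICTOR, DEPTOR, TSC1, TSC2, RHEB, RPS6KB1, RPS6KB2 and EIF4EBP1. They were taken as every probe set whose platform annotation gives 1 of these symbols and no other, with the brightest probe set standing for a gene that has more, and all 10 were found among the 18404 genes tested. Probe sets were chosen by their mean intensity over the 6 arrays, and the 10 genes were put forward for the contrast of SALL4 shRNA with scrambled control while its results were known. Their values, standard errors and intervals in that contrast are therefore a description. No p is given for a member, and members are counted against thresholds only to stand beside the share of all genes. The study asked what loss of SALL4, an oncofetal zinc finger transcription factor, does to lung cancer cells. Its series holds 3 arrays of H661 cells that received a scrambled shRNA (Scr-sh) and 3 of H661 cells that received a shRNA against SALL4 (SALL4-sh), with no other treatment named. Both hairpins were carried by lentivirus, 1 hairpin stood for each group, and the sources used here give no time from transduction to RNA. RNA came from whole cultures, so fewer cells with a transcript and less transcript per cell cannot be told apart.

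mTOR is a protein kinase that works in a pair of complexes. In mTORC1 it is joined by raptor, and the complex promotes protein synthesis by phosphorylating the S6 kinases and the 4E-BP repressors of translation. In mTORC2 it is joined by rictor, and the complex phosphorylates AKT. The small GTPase RHEB, bound to GTP on the lysosome, switches mTORC1 on, and the TSC1 and TSC2 proteins turn RHEB off. The pathway lies downstream of growth factor receptors and AKT in lung cancer cells, and is controlled mostly at the level of protein, which the arrays do not measure.

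The deposited values are normalized intensities on a linear scale with a floor of 8, where 38.8% to 40.4% of the probe sets of each array stood. SALL4 itself had 125.5, 104 and 130 on Scr-sh replicates 1, 2 and 3 and 33.6, 31.9 and 26.5 on SALL4-sh replicates 1, 2 and 3, which is -1.97 on the log2 scale (standard error 0.14, adjusted p = 0.0159 by limma, and p = 0.1 in an exact two-sided permutation test, the smallest that 3 against 3 allow). Of 4 epithelial markers, EPCAM averaged 745.7 (Scr-sh) and 995.7 (SALL4-sh), KRT18 56.05 and 41.67, KRT19 13.03 and 11.98, and KRT8 9.009 and 9.502, and the groups overlapped for each. The leukocyte markers PTPRC, CD3E and LYZ and the fibroblast and endothelial markers DCN, PECAM1, VWF and CDH5 stood at the floor on all 6 arrays. CD14, ITGAM and PDGFRB lay at or near it. Well above it were CD68, averaging 58.5 (Scr-sh) and 33.0 (SALL4-sh), COL1A1, 50.1 and 35.9, and COL3A1, 86.9 and 102.5. Summed over the 6 measured leukocyte markers, the intensity was 76.0 to 112 in Scr-sh and 72.6 to 76.2 in SALL4-sh, and over the 7 fibroblast and endothelial markers it was 170 to 184 and 163 to 191, with COL1A1 called lower in SALL4-sh. Whether the H661 cells themselves gave these signals was not tested.

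RPS6KB1 and RPTOR were higher on every SALL4-sh array than on any Scr-sh array, and EIF4EBP1 was lower on every SALL4-sh array. DEPTOR stood at the floor throughout. The groups overlapped for MTOR, RICTOR, TSC1, TSC2, RPS6KB2 and, on its brighter probe set, RHEB. These counts, 2 higher and 1 lower of the 9 members above the floor, stand beside shares of 14511 genes above the floor on some array. Of those genes, 15% were higher without overlap and 12.5% were lower without overlap. At an adjusted p under 0.05, the count in the limma fit was 1 of the 10 (higher), where it was 2.51% of all genes, 1.18% higher and 1.33% lower. Before adjustment it was 2 higher and 1 lower of the 10, beside 9.55% and 7.87% of all genes (17.4% in either direction). All genes here include 3893 at the floor on all arrays, which cannot pass, against 1 of the 10. The one-way test that the paper names gave 0 members after adjustment. Once the dimmest genes, up to the 25th percentile of mean intensity, were dropped, the adjusted limma count was 2 higher and 1 lower, beside 5.95% and 5.54% of genes in that fit. With any 1 of the 6 arrays left out, 0 members were called. Since the members were put forward for this contrast, nothing is read from these counts. The median log2 fold change of the 10 was -0.01, and that of all genes tested was 0.

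**Figure D1:**
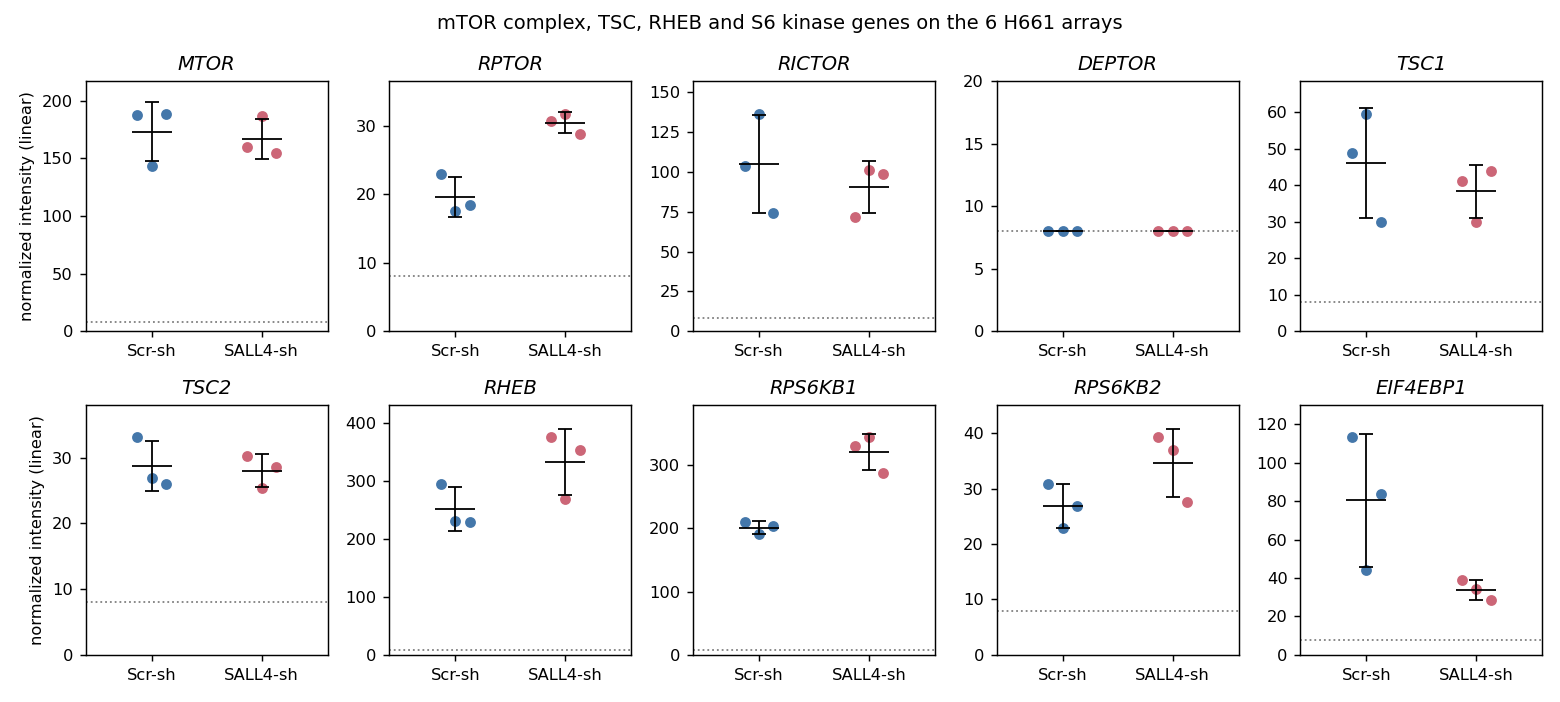
Normalized intensity (linear scale, y axis from 0 and scaled for each gene) of the 10 genes on the 6 H661 arrays. Each point is 1 array, the bar with its whiskers gives a group's mean and SD over 3 arrays, and dots trace the floor at 8. The groups lie apart for RPTOR, RPS6KB1 and EIF4EBP1, and all 6 DEPTOR values lie on the floor.

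Of the genes of the complexes, MTOR, the catalytic kinase, had intensities of 187, 143.7 and 189 on Scr-sh replicates 1, 2 and 3 and of 160, 187 and 154.5 on SALL4-sh replicates 1, 2 and 3. The highest SALL4-sh value lay between the Scr-sh values, and the group means were 173 ± 25.6 (SD, n = 3) and 167 ± 17.3 (SD, n = 3). The ratio of SALL4-sh to Scr-sh was 0.969 (95% confidence interval from limma 0.738 to 1.27). RPTOR encodes raptor, which holds mTORC1 substrates to the kinase. It had 23.0, 17.5 and 18.5 in Scr-sh and 30.8, 31.8 and 28.8 in SALL4-sh. Every SALL4-sh value exceeded the highest Scr-sh value, and the log2 fold change was 0.64 (standard error 0.12), a level 1.56 times that in Scr-sh.

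RICTOR encodes the scaffold that defines mTORC2. Its intensities were 104, 136.5 and 74.4 in Scr-sh and 71.9, 101 and 98.9 in SALL4-sh. The 3 Scr-sh values spanned all but the lowest of the SALL4-sh values, and the log2 fold change was -0.18 (standard error 0.28). The interval of its ratio, 0.520 to 1.49 (95% confidence, limma), lies on both sides of 1. DEPTOR, an inhibitor that binds mTOR in both complexes, had a value of 8 on each of the 6 arrays. No level and no difference can be given for it.

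TSC1 and TSC2 encode hamartin and tuberin, and together these proteins turn RHEB off. TSC1 had 48.9, 59.6 and 29.8 in Scr-sh and 41.1, 30.0 and 43.8 in SALL4-sh. All SALL4-sh values of TSC1 lay within the range of the Scr-sh values. TSC2 had 33.1, 27.0 and 26.1 in Scr-sh and 30.2, 25.3 and 28.6 in SALL4-sh, again with mixed groups. The ratio of TSC2 was 0.980 with a 95% confidence interval of 0.777 to 1.24 from limma, and that of TSC1 was 0.853 with a wider interval of 0.467 to 1.56.

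RHEB was the only member with more than 1 probe set. The brighter one, which stood for the gene by the rule given above, read 295, 230 and 228.5 in Scr-sh and 374.5, 268 and 353 in SALL4-sh. On it the lowest SALL4-sh value was below the highest Scr-sh value, and the log2 fold change was 0.40 (standard error 0.18). The other probe set read 170, 173 and 141 in Scr-sh and 215, 281 and 247 in SALL4-sh. On that probe set the groups did not overlap, and the log2 fold change was 0.61 (standard error 0.14 in a fit over all probe sets). Both probe sets were higher on average in SALL4-sh, and they put different arrays in front: replicate 2 was the lowest SALL4-sh array on the brighter probe set and the highest on the other. RefSeq lists pseudogenes of RHEB beside the gene, and which copies each probe set reads was not tested. Being brighter does not make a probe set the one that reads the RHEB gene itself. The overlap given for RHEB holds for the brighter probe set only.

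EIF4EBP1 and RPS6KB1, both of them outputs of mTORC1, had the largest differences of the 10 genes in size. RPS6KB1 encodes S6 kinase 1, which phosphorylates ribosomal protein S6 and eIF4B. It read 209, 190 and 204 in Scr-sh and 330, 343 and 288 in SALL4-sh. The groups were well apart, with means of 201 ± 9.77 (SD, n = 3) and 320 ± 29.0 (SD, n = 3), a ratio of 1.59 and a 95% confidence interval of 1.36 to 1.86 from limma. RPS6KB2, the gene of the related S6 kinase 2, read 30.8, 23.0 and 26.8 in Scr-sh and 39.3, 36.9 and 27.7 in SALL4-sh. SALL4-sh replicates 1 and 2 of RPS6KB2 lay above all Scr-sh values and replicate 3 lay among them, which gave a log2 fold change of 0.36 (standard error 0.19). The interval of that ratio, 0.904 to 1.82, includes the ratio of RPS6KB1, and the difference between both S6 kinase genes was not tested.

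EIF4EBP1 encodes 4E-BP1, which holds the cap-binding protein eIF4E until mTORC1 phosphorylates it. It read 113, 44.1 and 83.9 in Scr-sh and 39.0, 34.1 and 28.7 in SALL4-sh. The groups did not overlap, though Scr-sh replicate 2 lay close to the highest SALL4-sh value and far from the other Scr-sh arrays. The means were 80.4 ± 34.6 (SD, n = 3) and 33.9 ± 5.17 (SD, n = 3), which is -1.15 on the log2 scale (standard error 0.40). Without Scr-sh replicate 2 it was -1.53, and without Scr-sh replicate 1 it was -0.85. Among genes above the floor on some array, 2.0% had a lower log2 fold change than EIF4EBP1. For RPS6KB1 and RPTOR, 92.8% and 92.1% of these genes had a lower one.

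**Figure D2:**
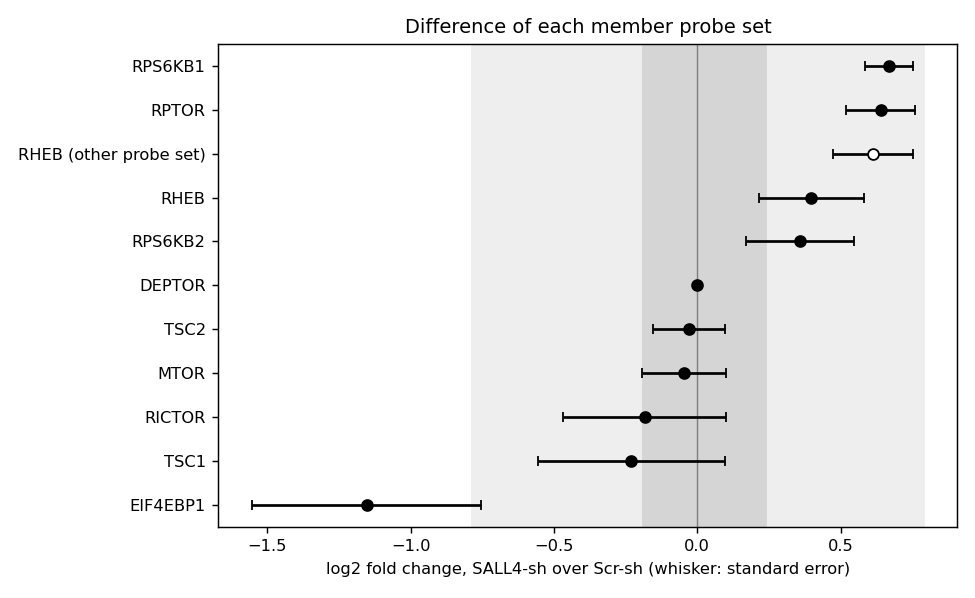
Log2 ratio (SALL4-sh to Scr-sh) of the 11 probe sets of the 10 genes, with whiskers for the standard error from limma (n = 3 arrays per group) and an open point for the second RHEB probe set. The dark and light bands hold the middle 50% and 90% of genes above the floor on some array. EIF4EBP1 at -1.15 lies outside the light band, and RPS6KB1, RPTOR, RPS6KB2 and both RHEB probe sets lie above the dark band, which ends at 0.24, and inside the light band, which ends at 0.79.

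The spread between arrays of a group differed widely among the 9 genes above the floor. The pooled SD within groups of the log2 intensity ran from 0.11 for RPS6KB1 to 0.52 for EIF4EBP1, with a median of 0.236, and the median over all genes above the floor on all arrays was 0.238. RPS6KB1 was thus the member with the least spread and EIF4EBP1 the one with the most. Scr-sh replicate 1 was the highest array of its group for 6 of the 9 genes and the lowest for 0. Scr-sh replicate 2 was the lowest of its group for 5 of the 9, and SALL4-sh replicate 3 was the lowest of its group for 5.

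**Figure D3:**
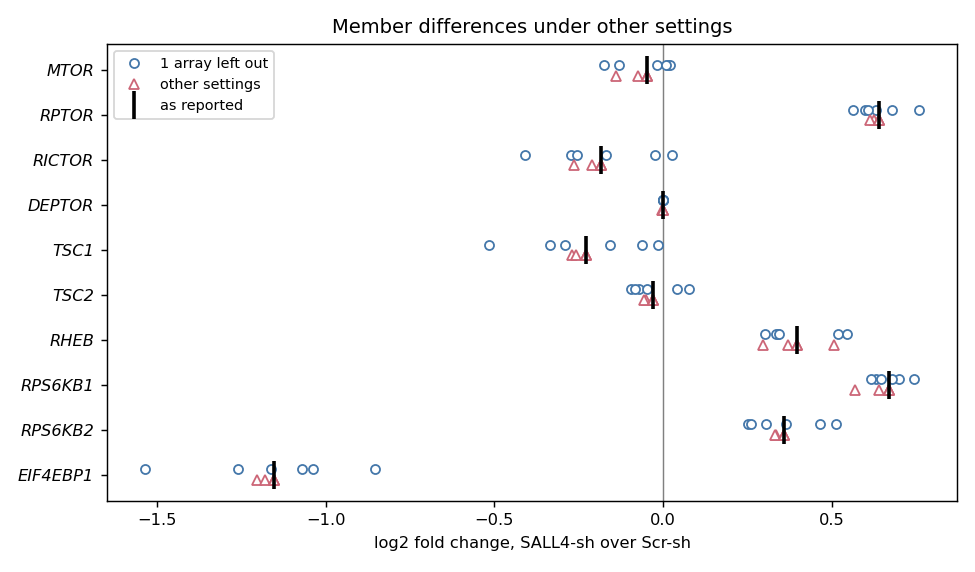
Log2 ratio (SALL4-sh to Scr-sh) of the 10 genes as reported (bars), with each of the 6 arrays left out in turn (circles) and under the other settings (triangles). RPTOR, RPS6KB1, RPS6KB2 and RHEB stay above 0 and EIF4EBP1 stays below 0, with -1.53 to -0.85 as its range, while MTOR, RICTOR and TSC2 cross 0.

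The direction was the same under all 12 other settings tried for 6 of the 9 genes, namely RPTOR, RPS6KB1, RPS6KB2, RHEB, TSC1 and EIF4EBP1. RPS6KB1 ran from 0.57 after cyclic loess normalization to 0.74 without SALL4-sh replicate 3. RPTOR ran from 0.56 without Scr-sh replicate 2 to 0.76 without Scr-sh replicate 1. The other 3 changed sign with single arrays left out. MTOR came to 0.02 at most, without Scr-sh replicate 3, and was also above 0 without Scr-sh replicate 1 and without SALL4-sh replicate 3. RICTOR came to 0.03 without Scr-sh replicate 2. TSC2 came to 0.08 without Scr-sh replicate 1 and to 0.04 without SALL4-sh replicate 2. TSC1 came to -0.02 without Scr-sh replicate 2 and to -0.51 without Scr-sh replicate 3.

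The 250 bases before the RefSeq start (GRCh38.p14) are shown for RPS6KB1 and RPTOR, the 2 genes that were higher on every SALL4-sh array, and for MTOR, whose groups were mixed. Windows were found for 8 of the 10 genes, all but EIF4EBP1 and DEPTOR. Capitals mark matches, on either strand, to TGCGCA (a repeat unit of the site that NRF1 binds, chosen after the RPS6KB1 sequence had been read), to CCAAT, to GGGCGG (the GC box) or to AATATT (an A/T-rich motif that SALL4 binds). Each is written 5′ to 3′ on the strand of the gene.
RPS6KB1, chr17:59892871-59893120, plus strand: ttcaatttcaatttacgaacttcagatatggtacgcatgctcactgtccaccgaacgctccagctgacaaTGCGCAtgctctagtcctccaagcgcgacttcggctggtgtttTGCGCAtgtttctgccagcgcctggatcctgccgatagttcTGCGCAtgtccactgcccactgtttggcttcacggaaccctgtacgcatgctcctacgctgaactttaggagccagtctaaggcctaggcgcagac
RPTOR, chr17:80544588-80544837, plus strand: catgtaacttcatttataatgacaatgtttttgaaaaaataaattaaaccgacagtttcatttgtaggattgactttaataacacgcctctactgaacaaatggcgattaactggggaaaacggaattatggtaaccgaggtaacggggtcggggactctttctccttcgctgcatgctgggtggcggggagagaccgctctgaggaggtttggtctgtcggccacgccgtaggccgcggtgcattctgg
MTOR, chr1:11262552-11262801, minus strand: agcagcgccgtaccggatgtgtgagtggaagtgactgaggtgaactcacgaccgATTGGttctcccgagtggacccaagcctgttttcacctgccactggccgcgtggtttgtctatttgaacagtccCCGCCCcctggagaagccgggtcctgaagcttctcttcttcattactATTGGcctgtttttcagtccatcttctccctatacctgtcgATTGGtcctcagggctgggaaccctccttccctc

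RPS6KB1 held 3 matches to TGCGCA, at 180, 137 and 96 bases before the start. Of all 35116 windows of this length 6.89% held at least 1 such match, and 0.122% held 3 or more. The motif was chosen from this window and 3 is the count found in it, so these shares are no test of rarity. MTOR held 3 CCAAT matches and 1 GC box, where 32% and 42.6% of all windows held at least 1. RPTOR held none of the 4 motifs, which says only that these letters are not in this window. AATATT was in none of the 9 windows of the 8 genes (TSC2 has 2) and in 6.41% of all windows. A match is a run of letters here, and no binding was measured on these arrays.

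Around these genes, 96 other genes of the pathway were measured, listed by role from general knowledge. The lists were drawn up with earlier results of these data known, so their counts and p-values are a description too. By limma 2 of the 96 rose and 2 fell in SALL4-sh (adjusted p under 0.05), beside the 1.18% and 1.33% of all genes called higher and lower. Before adjustment, 15 of the 96 had a p under 0.05 on the higher side and 21 on the lower side, beside 9.55% and 7.87% of all genes. Here and for each list below, all genes include 3893 at the floor on all arrays, which cannot pass, against 3 of the 96. The 1757 and 1449 genes behind these shares all lay among the 14511 above the floor on some array. The shares are therefore low for lists of genes mostly above the floor. Their median log2 fold change was -0.02. Once the dimmest genes were dropped as above, 8 rose and 9 fell of the 92 that were left, beside 5.95% and 5.54% of all genes in that fit.

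MAPKAP1, which encodes the mTORC2 subunit SIN1, was the 1 gene called among 7 other subunits and assembly factors. It read 95.2, 123 and 113 in Scr-sh and 200, 228 and 217 in SALL4-sh, 0.97 on the log2 scale (standard error 0.12, limma adjusted p = 0.0397). MLST8, the subunit common to both complexes, read 34.9, 37.5 and 46.2 against 62.2, 66.0 and 56.3, also without overlap, and did not pass (log2 difference 0.64, limma adjusted p = 0.104). PRR5L, an mTORC2-binding protein, read 11.5, 9.35 and 9.02 in Scr-sh and stood at the floor in all 3 SALL4-sh samples (adjusted p = 0.247 from limma). Of these 7 genes, MAPKAP1 and MLST8 were higher without overlap and PRR5L and TELO2 lower, beside the 15% and 12.5% given above, and AKT1S1, TTI1 and TTI2 overlapped between the groups.

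Of 27 genes of amino acid sensing at the lysosome, the surface on which RHEB meets mTORC1, FNIP2 rose and none fell. FNIP2, a partner of folliculin, read 19.9, 16.1 and 16.3 in Scr-sh and 50.3, 55.9 and 39.0 in SALL4-sh, 1.47 on the log2 scale (standard error 0.17, limma adjusted p = 0.0395). LAMTOR3, a subunit of the Ragulator that anchors mTORC1, had a log2 difference of -1.39 (limma adjusted p = 0.0522) and SESN1, an inhibitor of mTORC1 signaling, of 1.54 (adjusted p = 0.101 from limma). Before adjustment, 5 of the 27 had a p under 0.05 on the higher side and 4 on the lower side, against 9.55% and 7.87% over all genes.

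Of 10 genes of translation downstream of mTORC1, LARP1 and EIF4G1 fell and none rose, with 1 on the higher and 5 on the lower side before adjustment, where all genes had 9.55% and 7.87%. LARP1 represses the translation of ribosomal protein mRNAs until mTORC1 phosphorylates it. It fell from 296, 280 and 317 in Scr-sh to 144, 115 and 131 in SALL4-sh, -1.20 on the log2 scale (standard error 0.10, limma adjusted p = 0.0241). EIF4G1, the scaffold that 4E-BP1 keeps from eIF4E, fell from 81.2, 73.8 and 74.9 to 47.7, 47.5 and 53.8 (log2 difference -0.63, limma adjusted p = 0.0346). EEF2K, a kinase that S6 kinase 1 inhibits, had a log2 fold change of 0.80 and did not pass (adjusted p = 0.0794 from limma). EIF4E stood at the floor in all 3 Scr-sh samples and in 1 SALL4-sh sample.

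**Figure D4:**
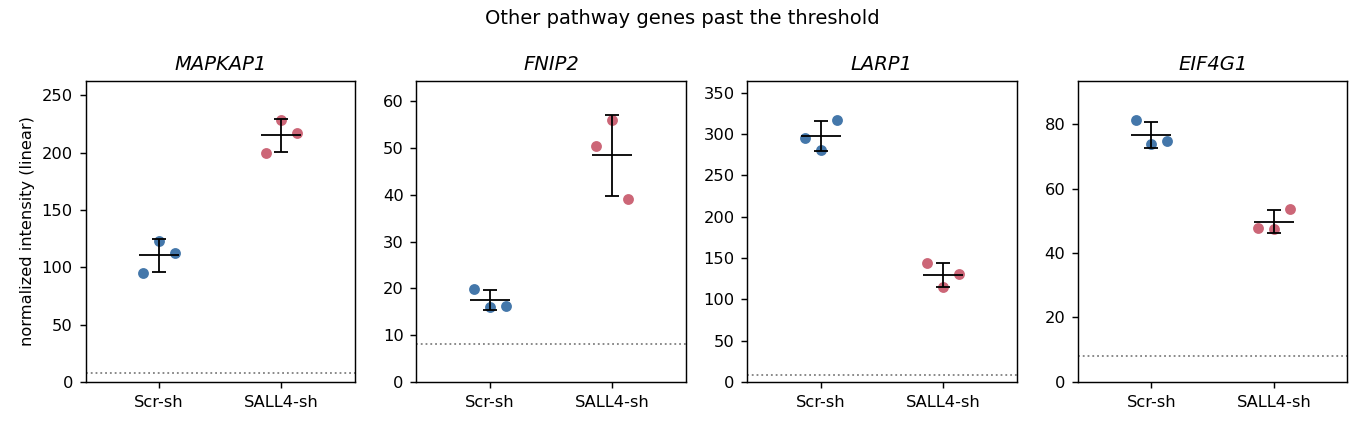
Normalized intensity (linear scale, y axis from 0 and scaled for each gene) of the 4 other pathway genes past an adjusted p of 0.05, on the 6 H661 arrays. Each point is 1 array, the bar with its whiskers gives a group's mean and SD over 3 arrays, and dots trace the floor at 8. MAPKAP1 and FNIP2 are higher and LARP1 and EIF4G1 lower on every SALL4-sh array.

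The other lists held no gene past the threshold of limma, and the counts at an unadjusted p under 0.05 are given for each, to be read beside the 9.55% of all genes on the higher side and 7.87% on the lower. Of 9 genes of PI3K, AKT and PDK1, 1 was higher and 1 lower. Their smallest p belonged to IRS1, a docking protein of the insulin receptor (log2 difference -0.26, limma adjusted p = 0.134), AKT1 (0.48, adjusted p = 0.212 from limma) and the PI3K subunit gene PIK3R3 (-0.72, adjusted p = 0.398 from limma). Of 11 genes of AMPK, LKB1 and REDD, 1 was higher and 1 lower. PRKAA1, a catalytic subunit of AMPK, which acts against mTORC1 through TSC2 and raptor, had a log2 difference of -0.86 (limma adjusted p = 0.0510), CAB39, a partner of LKB1, of 0.81 (adjusted p = 0.0826 from limma), and DDIT4 of 0.24 (adjusted p = 0.391 from limma).

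Among the 8 other RPS6 kinase genes, which encode the RSK and MSK kinases and relatives of the S6 kinases, 0 were higher and 1 lower without adjustment. RPS6KA3 had a log2 difference of -0.89 (limma adjusted p = 0.136), against 0.67 for RPS6KB1, and RPS6KA2 and RPS6KA5 lay at or near the floor. Of the mTORC2 substrates, SGK1, SGK2 and PRKCA were measured, none passed even unadjusted, and SGK2 stood at the floor throughout. SGK1 was at the floor on all Scr-sh arrays, and PRKCA had a log2 difference of 0.47 (limma adjusted p = 0.418). Of 8 genes of autophagy initiation and TFE factors, 3 were higher and 2 lower. ULK2, a kinase of autophagy initiation, had a log2 difference of 0.89 (limma adjusted p = 0.102), MITF of -0.57 (adjusted p = 0.179 from limma) and RB1CC1, a partner of the ULK kinases, of -0.91 (adjusted p = 0.216 from limma). Of 13 genes listed as raised through mTORC1, 2 were higher and 6 lower without adjustment, again beside 9.55% and 7.87%. ASNS, asparagine synthetase, had a log2 difference of -0.89 (limma adjusted p = 0.0602) and HIF1A of 0.73 (adjusted p = 0.0891 from limma). SHMT2, a mitochondrial enzyme of serine metabolism, had 0.500 of its Scr-sh level (adjusted p = 0.0843 from limma). The one-way test that the paper names called 0 genes in every list.

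**Figure D5:**
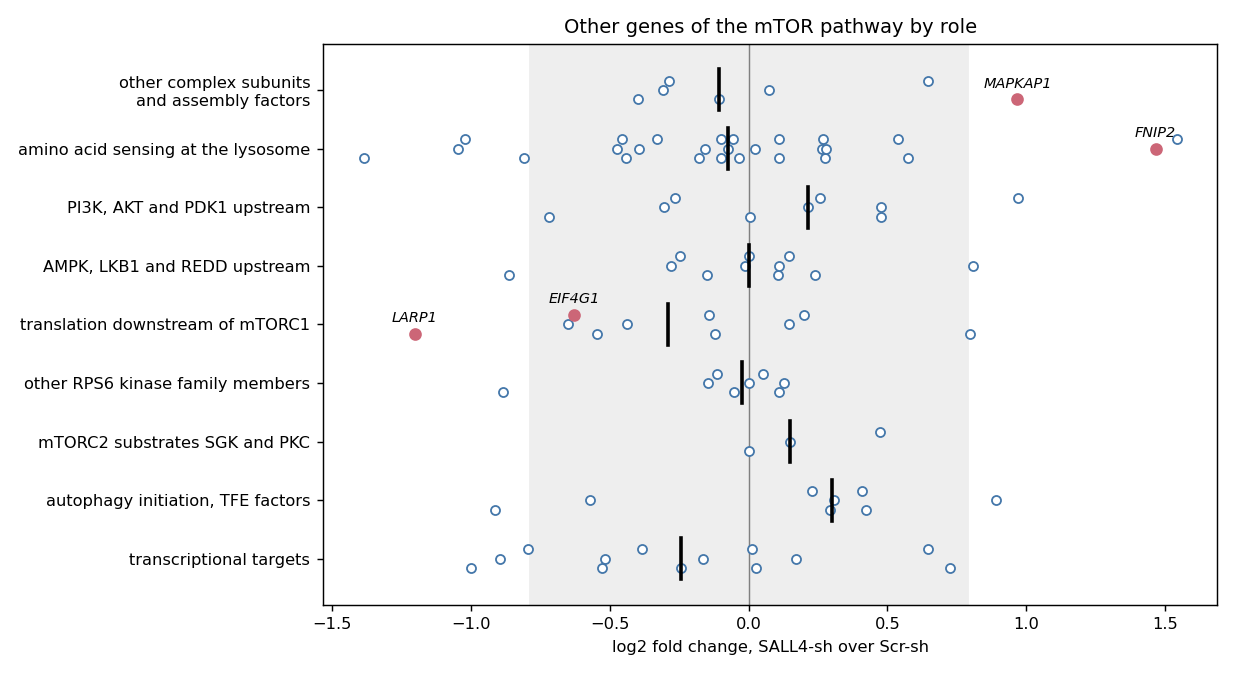
Log2 ratio (SALL4-sh to Scr-sh) of the 96 other pathway genes, in rows by role. Points are genes, filled and named where they passed an adjusted p of 0.05 from limma, black bars are the median of a row, and the grey band holds the middle 90% of genes above the floor on some array. The 4 filled points are MAPKAP1 and FNIP2 above 0 and LARP1 and EIF4G1 below 0, and each row has points on both sides of 0 except that of the SGK and PKC genes, which lies at or above 0.

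Most of the 4 calls were lost with any array left out. LARP1 stayed called in 1 of the 6 fits with 1 array left out, the one without Scr-sh replicate 2, and MAPKAP1, FNIP2 and EIF4G1 in 0 of them. Of 10 housekeeping reference genes, YWHAZ was the 1 called higher and 0 were called lower, beside 1.18% and 1.33% of all genes. Before adjustment, limma gave a p under 0.05 for 2 on the higher side and 3 on the lower side, beside 9.55% and 7.87%. With the dimmest genes dropped as above, 1 was called higher and 3 lower, beside 5.95% and 5.54%. The log2 fold changes of the 10 ran from -0.82 to 0.63, with a median of 0.01.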

How the data were processed

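Gene expression of 6 samples was measured on Affymetrix arrays with 5 µg of total RNA per sample. What the authors deposited are normalized intensity values for 32321 probe sets on a linear scale with a floor of 8, and the submitters' processing notes name RMA, without its version. The labels and the paper differ on the RNA extraction (Trizol or a Qiagen column kit) and on the serum content of the medium. No genome build is named. Here log2 of the intensity was taken. Of the probe sets, 19158 had 1 symbol in the platform annotation, 1388 had several and were not used, and 11775 had none listed. Current RefSeq names changed 0 symbols. The brightest probe set carried each gene (18404 genes). Groups came from the sample titles and went into limma 3.58.1 under R 4.3.3 (functions lmFit and eBayes, no filter, Benjamini-Hochberg over all genes, threshold 0.05). The sources used here do not say whether a group's arrays stem from separate cultures, and p-values reflect only the spread among these samples, possibly a technical one. Precision is limited by there being 3 arrays per group.

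The members and lists were chosen with earlier results of these data known. Named genes were the 10 members, SALL4, and of each other pathway list the genes past the threshold, filled up to 3 by the smallest p. Alternatives were cyclic loess, median centring, a filter at the 25th percentile of mean intensity, averaging the probe sets of a gene, eBayes with trend and robust, replicate number as a block, leaving out each array, and the one-way ANOVA the paper names. The test was checked on simulated data with known changes, placed only in brighter genes. Without the filter its share of false calls lay above the threshold and with the filter below it. The fit without the filter recovered fewer of the larger changes. Both fits missed nearly all of the smallest changes, which were 1.5-fold, so a gene that did not pass may still differ by that much.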

Additional observations from a re-analysis of the deposited data

How the results depend on the processing

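The directions of SALL4, RPTOR, RPS6KB1, RPS6KB2, RHEB, TSC1 and EIF4EBP1 were the same under all 12 alternatives. Counts of calls were not. With the 25th percentile filter, 821 genes were higher and 764 lower in SALL4-sh (218 and 244 as reported), of the 10 members 2 and 1, and of the other pathway genes 8 and 9. With eBayes with trend and robust, 26 and 50 genes, 0 members and 0 other pathway genes in either direction were called. The one-way ANOVA called 47 genes higher, 64 lower and 0 members. Cyclic loess left 0 members and 5 lower pathway genes, and median centring 0 members. With 1 array left out, 23 to 231 genes were higher and 29 to 173 lower, 0 members were called, 0 to 2 other pathway genes were higher and 0 to 5 lower, and the log2 fold change of SALL4 ran from -2.07 to -1.87 with an adjusted p of 0.0309 to 0.0741 from limma. Fewer genes entered the fit with the filter, and fewer arrays the fits with 1 left out. The other alternatives used as many genes and arrays as the fit reported. The cause of these changes was not tested.

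The sample titles give replicate numbers and name no pairing between the groups. Deviations from the group means correlated at 0.15, 0.12 and 0 between samples numbered 1, 2 and 3, over 12057 genes. Scr-sh replicates 1 and 2 correlated best with their own number, and Scr-sh replicate 3 did not. Whether the samples were paired cannot be told from these values. With the replicate number as a block, 3 genes were higher and 7 lower, 0 members and 0 other pathway genes were called, and SALL4 stood at -1.97 on the log2 scale (limma adjusted p = 0.115). The floor of 8 limits DEPTOR, EIF4E and SGK1, for which weak signals cannot be compared.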

Other observations

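The genes of this section were picked after their values had been seen. The Ragulator subunits, which tether mTORC1 to the lysosome, were unequal. LAMTOR2 read 41.8, 35.7 and 49.3 on Scr-sh replicates 1, 2 and 3 and 18.9, 26.3 and 17.7 on SALL4-sh replicates 1, 2 and 3 (adjusted p = 0.107 from limma, and 0.0142 with the 25th percentile filter). LAMTOR3 read 42.9, 31.9 and 50.4 against 14.8, 17.1 and 15.2 (adjusted p = 0.0522 from limma, and 0.00342 with that filter). LAMTOR5 read 104, 89.0 and 93.8 against 113, 113 and 119, higher on every SALL4-sh array (adjusted p = 0.145 from limma, and 0.330 with that filter). LAMTOR4 overlapped between the groups. Of the sestrins, SESN1 was higher on every SALL4-sh array, with 68.7, 112 and 53.4 against 233, 221 and 197.5, while SESN2 overlapped, with 23.8, 25.6 and 27.2 against 24.3, 20.9 and 14.4.

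Of 6 genes of the ATF4 program of serine, asparagine and one-carbon metabolism, 5 were lower on every SALL4-sh array, namely ATF4, PSAT1, PHGDH, SHMT2 and ASNS, beside 12.5% of genes above the floor on some array. MTHFD2 was the other one, with 317, 309 and 296 against 310, 299 and 332.5. ATF4 and MTHFD2 have 2 probe sets each, and only the brighter one of each was read here. None of the 6 passed an adjusted p of 0.05 from limma, and SHMT2 and ASNS did with the filter.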
